A study of Mus musculus with 2 samples.

Results

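The mesendoderm and caudal transcription factors examined here are 10 genes, T (Brachyury), Eomes, Mixl1, Gsc, Tbx6, Msgn1, Tcf15, Cdx1, Cdx2 and Cdx4, of 32947 gene names on the array. They were taken as every non-control probe whose gene name in the scanner files is one of these symbols, which gave 12 probes, 2 each for T and Eomes and 1 for each of the other genes. RNA came from mouse embryonic stem cells of line 46C, which carries a GFP reporter at the neural gene Sox1, after 5 days of neural differentiation as floating aggregates in medium with serum replacement. Of the 2 arrays, 1 held KO-Linc1548 cells, labelled as lacking the long intergenic RNA Linc1548, and 1 held wild type (WT) cells of the same line. How the RNA was disrupted, and whether the knockout cells are a single clone, is not given in the sources used here. The series title places Linc1548 in the passage of epiblast stem cells to neural progenitors, and the comparison asks how RNA levels differ at that stage without it. Genotype, culture and array position coincide, so their effects cannot be told apart.

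During gastrulation, epiblast cells that receive Nodal and Wnt signals form the primitive streak and switch on T-box and homeobox factors, among them T, Eomes, Mixl1 and Gsc, before they become mesoderm or endoderm. Cells that stay in the posterior growth zone use T together with the Cdx factors, which activate trunk Hox genes, while Tbx6, Msgn1 and Tcf15 act later, in presomitic mesoderm and somites.  Several of these genes also have roles outside the streak: Eomes and Cdx2 are needed in the trophoblast, and Tcf15 is transcribed in pluripotent cells that are about to differentiate.

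In KO-Linc1548 cells Cdx1, Tcf15, Eomes and Cdx2 read 4.64 to 16.8-fold higher than in WT cells. T and Tbx6 lay within 2-fold, and Gsc sat at the 2-fold limit. These sizes depended on the processing. The lowest log2 difference over the other settings run was 2.89 for Cdx1, 3.06 for Tcf15, 1.73 for Eomes and 1.71 for Cdx2. Cdx1 was dim in WT cells, and the Eomes value rests on 1 of its 2 probes. Mixl1 was dim, and well above background in KO-Linc1548 cells alone, and Msgn1 and Cdx4 were not well above background on either array. The 10 genes therefore did not move as a block: streak, tail and somite genes were found both among those that read higher and among those that did not. Each group is 1 array without a replicate, so differences were not tested, and 2-fold is used below as a limit of size only. In bulk RNA, more cells that express a gene and more RNA per cell cannot be told apart.

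All signals below are processed spot intensities scaled to a common 75th percentile (751), each with the error that the scanner software's noise model gives it. That error covers 1 spot on 1 array and not the spread between cultures. A probe counted as measured, or detected, where the software called it well above background. The software also has a looser flag, for signals that are positive and significant. The Mixl1 and Msgn1 probes and the dimmer Eomes probe passed that looser flag on both arrays. The Cdx4 probe and the dimmer T probe passed it on the KO-Linc1548 array only. The lowest signal so called was 30.5 on the KO-Linc1548 array and 21.3 on the WT array. Probes printed in many spots varied by a pooled SD of 0.0705 on the log2 scale on the KO-Linc1548 array and 0.0646 on the WT array. Per the headers, the arrays shared a slide and a scan time. No probe names Linc1548 (0 probes), but the array names probes at long intergenic RNA loci by position. The Linc1548 locus was not searched for by position, so the knockout label was not checked against its target. Of the marker lists for cell states, all 16 naive pluripotency genes and 16 of 18 neural progenitor genes were well above background on both arrays, which does not establish the state of either culture.

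The probes that carry the results are shown by the first 30 of their 60 bases, with positions on mouse build mm9 as the files give them. The pairs for T and Eomes are included because 1 probe of each pair was detected and the other was not, and the Tcf15 and Cdx2 probes because their signals differed strongly between the arrays.
T, chr17:8634870-8634929, plus strand: taagagcaataatacatgtcctataatcat
T, predicted variant, chr17:8627130-8627189, plus strand: ttttctcttccccagagacttactcttgtc
Eomes, chr9:118394425-118394484, plus strand: gctatgaagaacgagtgcccggtgctatta
Eomes, chr9:118390460-118391121, plus strand: ttaaaactcaccaataacaaaggtgcaaac
Tcf15, chr2:151974683-151974742, plus strand: ccatccaggcctagctggccagggacaagg
Cdx2, chr5:148112547-148112606, minus strand: gccttttaaaaagccttcttgatccatggg
The 12 probes had a GC content of 35% to 55%. None shared more than 17 consecutive bases with an array probe of another gene name; transcripts without a probe were not compared.

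Among the T-box factors, which bind DNA through the domain first found in Brachyury, Eomes was the gene that read higher. The Eomes probe near the end of the transcript (from base 2889) read 831 ± 83.4 in KO-Linc1548 cells, against 89.1 ± 10.0 in WT cells, a log2 difference of 3.22 ± 0.22 (9.33-fold). The other Eomes probe was designed on a different transcript record of the gene and starts at base 1590 of that record. It covers 662 bases of genome with 60 bases of probe, so it crosses at least 1 intron. Whether the 2 probes read the same RNA was not tested. It read 18 ± 6.58 in KO-Linc1548 cells and 15.3 ± 4.57 in WT cells, not well above background on either array. The higher level of Eomes thus rests on 1 of its 2 probes, and with both probes kept the median log2 difference was 1.73.

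T, the founding T-box gene and a regulator of mesoderm and notochord, was detected clearly on both arrays by its probe for the main transcript and did not read higher in the knockout. It gave 2414 ± 242 in KO-Linc1548 cells, against 3695 ± 369.5 in WT cells, a log2 difference of −0.61 ± 0.20 (1.53-fold lower, within the 2-fold limit). Under centring by spike-in controls it was −1.07, past that limit. The second T probe, designed on a predicted transcript variant, read 12.4 ± 6.69 in KO-Linc1548 cells and 4.48 ± 4.49 in WT cells, and neither value was well above background. With this undetected probe kept in the median the sign of the T value turned, to 0.42.

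The place of that second probe could be read from RefSeq's promoter table (GRCm38.p6). All 60 of its bases lie upstream of the annotated start of T, from 158 to 99 bases before it, so a transcript from that start would not hold them. The sequence of the 250 bases before the start is shown because it places the probe, whose bases are in capitals.
T promoter, chr17:8434173-8434422, plus strand: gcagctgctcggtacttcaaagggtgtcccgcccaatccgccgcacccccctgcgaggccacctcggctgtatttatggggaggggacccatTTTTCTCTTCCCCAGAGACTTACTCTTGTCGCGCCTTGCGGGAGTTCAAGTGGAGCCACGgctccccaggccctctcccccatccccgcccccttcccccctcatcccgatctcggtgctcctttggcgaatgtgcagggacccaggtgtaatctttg
On neither array was RNA from this upstream stretch well above background, while the probe near the end of the main transcript was so on both.

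Tbx6, which directs cells of the presomitic mesoderm away from a neural fate, differed least of the 7 genes measured on both arrays. Its probe read 330.4 ± 33.7 in KO-Linc1548 cells and 289 ± 29.2 in WT cells. The log2 difference of 0.20 ± 0.21 was smaller than its own error and turned to −0.26 with spike-in centring.

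**Figure D1:**
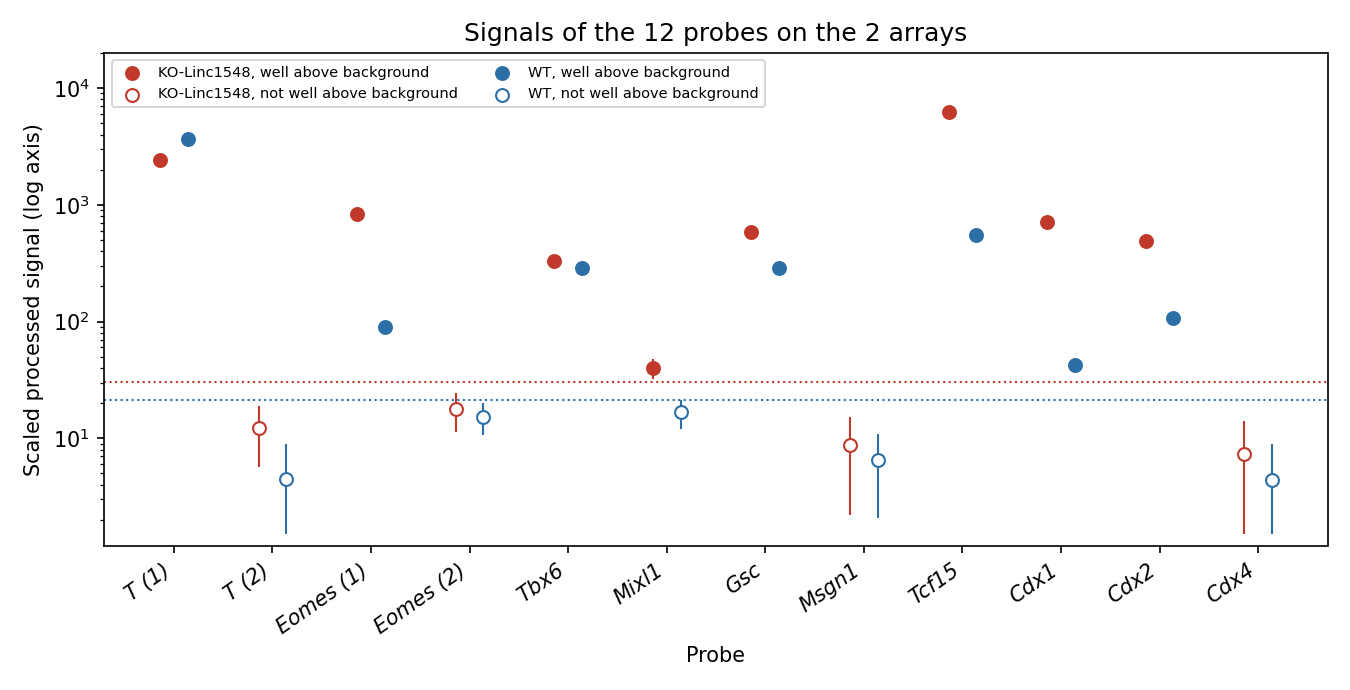
Scaled processed signal (log axis) of the 12 probes in KO-Linc1548 cells (red, left of each pair) and WT cells (blue, right), with the software's error as bars, cut at the foot of the axis where they reach it; filled points are well above background, open points are not, and dotted lines mark the lowest signal so called on each array (30.5 and 21.3). Cdx1, Tcf15, the first Eomes probe and Cdx2 lie higher in KO-Linc1548 cells, while the first T probe lies at 2414 in KO-Linc1548 cells and 3695 in WT cells.

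The paired-type homeodomain factors of the streak gave weaker differences. Gsc, a repressor made in the anterior streak and organizer, read 591 ± 59.4 in KO-Linc1548 cells, against 289.7 ± 29.3 in WT cells. Its log2 difference of 1.03 ± 0.21 (2.04-fold) stood closer to the 2-fold limit than its error, and it fell below that limit with quantile normalization (0.999), normexp background correction (0.88) and spike-in centring (0.57). Mixl1, a target of Nodal signalling needed for endoderm, read 39.8 ± 7.55 in KO-Linc1548 cells and 16.8 ± 4.70 in WT cells. Only the first of these was well above background, so the Mixl1 fold has a bound. It was at least 1.87-fold higher in KO-Linc1548 cells, which is under the 2-fold limit. Bounds here and below hold for the main setting only.

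The bHLH factors bind E-box DNA as dimers with E proteins, and Id proteins block that pairing. Msgn1, a regulator of presomitic mesoderm, gave 8.74 ± 6.56 in KO-Linc1548 cells and 6.48 ± 4.41 in WT cells, neither well above background, so it has no fold. Tcf15 (Paraxis), needed for epithelial somites, stood far above background on both arrays and read higher in the knockout. It gave 6286 ± 629 in KO-Linc1548 cells, against 548 ± 55.0 in WT cells, a log2 difference of 3.52 ± 0.20 (11.5-fold). Of all genes measured on both arrays, 113 (0.605%), itself included, had a difference at least as high.

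Of 20 further genes in the list of E proteins, Id genes and mesodermal bHLH genes, 11 were measured on both arrays. Past the 2-fold limit, 1 read higher and 6 read lower, and the list's median log2 difference was −1.05 (−1.51 to −0.13 over all settings run). The 4 Id genes were all among the lower ones: Id4 at −1.64, Id3 at −1.35, Id2 at −1.14 and Id1 at −1.05, and each stayed at least 2-fold lower in all 9 settings. Id4 was the lowest of the list, followed by Twist1 (−1.56), a regulator of mesenchyme whose KO-Linc1548 signal of 39.7 lay close to background and whose difference was −0.54 with normexp background correction. The E protein genes were Tcf12 (−1.23, or −0.92 in the setting nearest 0), Tcf4 (−0.65) and Tcf3 (−0.37); these and Id1, Id2 and Id3 were named after their values were seen. Tcf23 was the higher gene (1.18, or 0.72 with spike-in centring). Mesp2, a segmentation gene, was well above background in KO-Linc1548 cells alone, by at least 2.66-fold, and Ferd3l in WT cells alone, by at least 2.17-fold. Mesp1, the bHLH factor of early cardiac mesoderm, was not well above background on either array.

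The Cdx genes encode homeodomain factors related to Drosophila caudal. Cdx1, which responds directly to Wnt and retinoic acid in the posterior embryo, showed the highest difference of the 7 measured genes. Its probe (chr18:61178558-61178617 on mm9) read 708 ± 71.1 in KO-Linc1548 cells, against 42.2 ± 6.18 in WT cells, a log2 difference of 4.07 ± 0.26 (16.8-fold). Among all measured genes, 45 (0.241%) had a difference at least as high. The WT signal was only 1.98 times the lowest signal well above background on that array, so the size of the fold is uncertain: it was 2.89 on the log2 scale with normexp background correction, and Cdx1 dropped out under a stricter filter on dim probes.

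Cdx2, which patterns the posterior body axis and specifies the trophectoderm, followed the same direction with a smaller difference. It read 493 ± 49.8 in KO-Linc1548 cells, against 106 ± 11.6 in WT cells, a log2 difference of 2.21 ± 0.21 (4.64-fold). Both values were well above background, and the difference ran from 1.71 to 2.23 over the other settings. Cdx4, the X-linked member of the family, read 7.40 ± 6.63 in KO-Linc1548 cells and 4.42 ± 4.43 in WT cells, not well above background on either array. Among the Cdx genes, Cdx1 and Cdx2 were thus the ones with measurable RNA, and both read higher in the knockout.

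**Figure D2:**
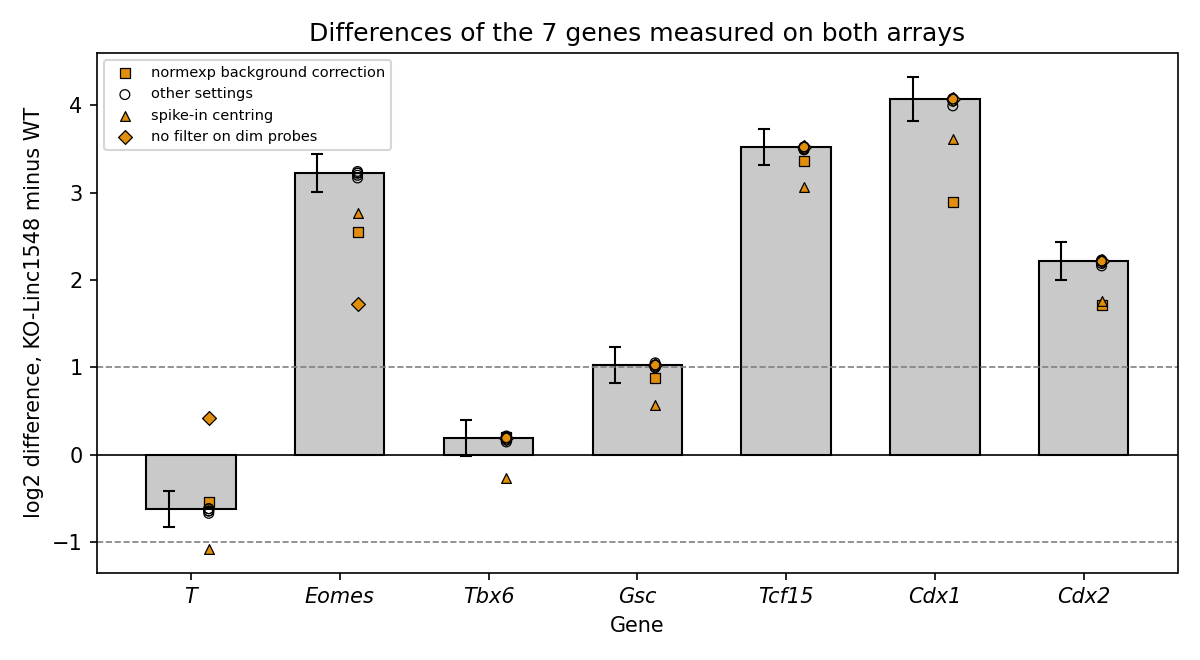
Log2 difference, KO-Linc1548 minus WT, of the 7 genes measured on both arrays (grey bars, with the software's error as whiskers) and the values under the other settings (symbols); dashed lines mark 2-fold. Tcf15, Cdx1, Eomes and Cdx2 stay beyond 2-fold in every setting that gave a value, Gsc straddles the line from 0.57 to 1.05, and T runs from −1.07 to 0.42.

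Promoter sequence was in RefSeq's table for 7 of the 10 genes, all but Tcf15, Mixl1 and Cdx1. The 250 bases before each start were searched on both strands for CTTTGAT (the motif of the Wnt effectors TCF and LEF), GGTGTGA (T-box factors), TTTATNG (CDX), ATGCAAA (the octamer core bound by POU factors such as OCT6), ATCCACA (FOXH1, a Nodal effector) and CANNTG (E-box). Octamer cores stood in Cdx2 and Cdx4, 147 and 93 bases before the start, against 4.12% of 32851 promoters. These 2 promoters are shown because the series title names the POU factor OCT6, with the octamer core in capitals.
Cdx2 promoter, chr5:147307250-147307499, minus strand: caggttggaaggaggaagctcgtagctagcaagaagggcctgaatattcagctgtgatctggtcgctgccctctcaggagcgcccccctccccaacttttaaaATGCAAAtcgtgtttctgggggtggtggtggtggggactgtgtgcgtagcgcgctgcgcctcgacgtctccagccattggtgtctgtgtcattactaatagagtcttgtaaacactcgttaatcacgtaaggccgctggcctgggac
Cdx4 promoter, chrX:103321148-103321397, plus strand: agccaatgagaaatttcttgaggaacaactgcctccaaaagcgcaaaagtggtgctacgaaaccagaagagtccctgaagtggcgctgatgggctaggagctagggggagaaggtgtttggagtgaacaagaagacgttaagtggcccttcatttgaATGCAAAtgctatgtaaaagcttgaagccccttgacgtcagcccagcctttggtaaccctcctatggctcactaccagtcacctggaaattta
Both promoters hold the core. Cdx2 read higher in the knockout, and Cdx4 was not well above background on either array, so it has no fold to compare. Any part of the core in these levels was not tested. CDX motifs stood in T and Tbx6 (9.81% of promoters), a TCF/LEF motif in Msgn1 (3.21%), E-boxes in 5 of the 7 (66.2%), and no T-box or FOXH1 motif was found in these 7 windows (3.33% and 2.78% of promoters). A match of letters is a description and not a binding site.

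Of the 10 genes, 7 were measured on both arrays. Of these 7, 5 passed the 2-fold limit upward in KO-Linc1548 cells, 0 passed it downward and 2 were within it. Among the 18671 genes of the array measured in both groups, 2149 (11.5%) passed it upward and 1644 (8.81%) downward, together 3793 (20.3%). The median log2 difference of the 18671 genes was 0.10. Of the remaining members, 1 was well above background in KO-Linc1548 cells alone and 2 on neither array. By probe, 8 of 12 were well above background in KO-Linc1548 cells and 7 in WT cells, against 58.5% and 61.4% of all probes. Genes detected on 1 array alone were not counted over the whole array, so such counts here and below have no share beside them. Of the genes past the limit, 28.2% were higher with spike-in centring, against 56.7% in the main setting, and that centring left 4 of the 10 genes higher and T lower. The plot of all genes shows Cdx1, Tcf15 and Eomes in the upper tail, where 0.241% to 1.02% of genes had a difference at least as high, and Cdx2 at 3.28%.

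**Figure D3:**
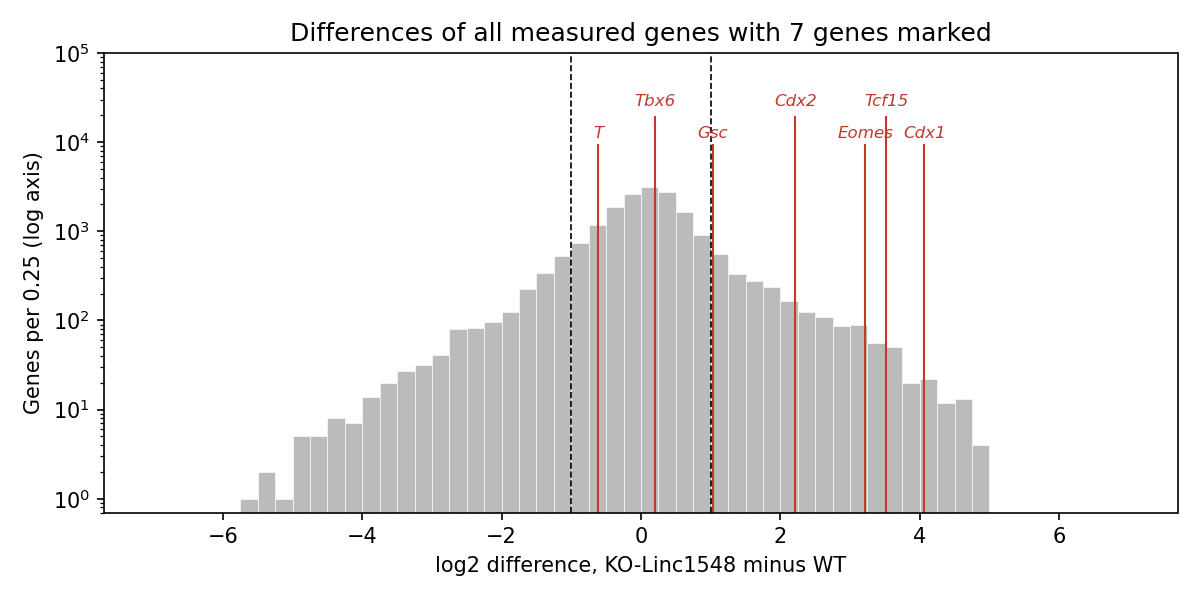
Number of genes (log axis) per step of 0.25 in log2 difference, KO-Linc1548 minus WT, for the 18671 genes measured on both arrays, with 7 genes marked in red and 2-fold as dashed lines. T (−0.61) and Tbx6 (0.20) lie in the bulk, and Eomes (3.22), Tcf15 (3.52) and Cdx1 (4.07) lie in the upper tail.

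Signals upstream of these genes read higher in part. Of 22 genes of the Nodal and Wnt inputs to the streak, all measured, 9 passed the 2-fold limit upward and 1 downward, and the median log2 difference was 0.49 (0.03 with spike-in centring). Tdgf1, the co-receptor of Nodal, was 23.3-fold higher as the median over its 5 probes (log2 4.54, or 2.21 by its brightest probe), and Fgf4, an epiblast growth factor, read 12769 in KO-Linc1548 cells and 1296 in WT cells (9.86-fold). Smad3, an effector of Nodal and TGF-beta signals, was the lower one (log2 −1.75). Gdf3 (3.10), Nodal itself (2.87), Bmp4 (2.86), Fgf8 (2.44), Wnt8a (1.82), Lef1 (1.76) and Tcf7 (1.43, or 0.97 with spike-in centring) were higher too. Wnt3 (0.38) and Wnt3a (0.61), the Wnt ligands of the streak and tail bud, stayed within 2-fold. All genes from Gdf3 to Wnt3a in this account were named after their values were seen. Nodal, Tdgf1 and Wnt8a are also in the primed epiblast list, and Fgf4 is also in the naive pluripotency list.

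Other genes of the streak differed in both directions. Of 25 streak and organizer genes, 23 were measured; 3 passed 2-fold upward and 6 downward, with a median of −0.11. The higher ones were Lefty2 (4.46) and Lefty1 (3.14), Nodal antagonists, and Cer1 (1.33, or 0.87 with spike-in centring), a secreted antagonist named after its value was seen. All 3 are also in the primed epiblast list. The lowest were Cxcr4 (−2.37), a chemokine receptor of endoderm and mesoderm, which read 163 in KO-Linc1548 cells and 842 in WT cells, and Foxa2 (−1.88), a factor of endoderm, node and floor plate. Among 18 definitive endoderm genes, 7 passed 2-fold upward and 4 downward, but 3 upward and 5 downward with spike-in centring, where the list's median was −0.13 against 0.33 in the main setting. Epcam (2.52) and Trh (2.42) were highest and Foxa1 (−3.17) and Cxcr4 lowest, while Sox17, a defining endoderm factor named after its value was seen, read 552 in both KO-Linc1548 and WT cells (log2 difference −0.46 to 0.07 over all settings).

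Genes that work beside Tbx6, Msgn1 and Tcf15 in the paraxial mesoderm read lower more often than higher. Of 25 presomitic and somite genes, 15 were measured, with 2 past 2-fold upward, 7 downward and a median of −0.72 (−1.18 to −0.54 over all settings). Lfng (−3.23) and Dll1 (−3.17, or −1.29 with its undetected probe kept), parts of the Notch segmentation clock that neural progenitors also use, were lowest. Fgf17 (3.68, or 2.16 with normexp background correction), whose WT signal of 23.3 lay close to background, and Rspo3 (1.01, or 0.55 in the setting nearest 0) were highest. Ripply1, a transcriptional repressor that acts in forming somite boundaries, was well above background in KO-Linc1548 cells alone (at least 5.37-fold). Foxc2 was so in WT cells alone (at least 3.11-fold), and 5 further genes on neither array. Of 19 tail bud and neuromesodermal genes, 16 were measured, with 3 higher and 5 lower by 2-fold (8 lower with spike-in centring). Fgf17 and Fgf8 were highest and Sp8 (−1.80) and Wnt5a (−1.59, or −0.98 in the setting nearest 0) lowest. Fgf17 and Rspo3, both among the higher genes, stand in this list and in the presomitic one. Nkx1-2, a marker of the caudal epiblast, was well above background in KO-Linc1548 cells alone, by at least 1.97-fold on 1 of its 3 probes, and Gdf11, a signal that ends trunk growth, in WT cells alone, by at least 2.91-fold.

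The trunk and tail Hox genes, the classical downstream genes of the Cdx factors, were mostly dim. Of 27 genes, 14 were not well above background on either array and 8 were measured on both, of which 4 passed 2-fold upward and 1 downward. The number upward was 1 under the stricter filter on dim probes and 16 with no filter, so it depended on how dim probes were treated. Hoxc9 (2.12), which read 268 in KO-Linc1548 cells and 61.6 in WT cells, and Hoxc6 (1.78, or 1.09 with normexp background correction) were highest, and Hoxb8 (−1.03) was lowest, within 2-fold in 2 of 9 settings. A further 4 genes were well above background in KO-Linc1548 cells alone, Hoxd8 by at least 5.62-fold on the higher of its 2 probes and Hoxc8 by at least 4.80-fold, against 1 in WT cells alone. The list's median of 1.04 was not stable: it was 0.21 under the stricter filter and 0.62 with normexp background correction.

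Wnt target genes, which include Cdx1 and T in other systems, were divided. Of 21 genes, 5 passed 2-fold upward and 3 downward, and the median was 0.21 (range over all settings, −0.25 to 0.29). Bmp4 (2.86) and Lef1 (1.76) were highest, and Lgr5 (−1.80, or −1.13 with normexp background correction) and Ccnd1 (−1.62), a cyclin of G1, lowest. Axin2, a common readout of Wnt activity named after its value was seen, was at −0.34 (−0.90 to −0.11 over all settings). Its 2 probes differed in sign, at −0.90 and 0.22.

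Markers of other cell types were set beside Eomes and Cdx2, which trophoblast also uses. Of 23 trophoblast genes, 18 were measured, with 5 past 2-fold upward, 4 downward and a median of 0.25 (−0.21 with spike-in centring). Tfap2c (2.82) and Sox15 (2.62), both also active in pluripotent or germ cells, were highest, and Gata2 (−4.40) and Gata3 (−2.04), factors of trophoblast that neurons and other tissues use as well, were lowest. The KO-Linc1548 signal of Gata2 (50.2) lay close to background: its difference was −3.11 with normexp background correction, and it had no value under the stricter filter. Elf5 and Hand1, defining trophoblast factors, were not well above background on either array. Of the 14 lists, which were chosen with earlier results of these data known, those of cell states along the path to neural progenitors moved most. Of 16 naive pluripotency genes 14 passed 2-fold upward and 0 downward (median 2.91). Of 16 primed epiblast genes 13 passed it upward and 2 downward (median 1.92). With spike-in centring the number upward was 12 in the naive list (median 2.45) and 9 in the primed list (median 1.46). Nr0b1 (12.4-fold) and Tfcp2l1 (12.4-fold) led the first and Tdgf1 and Lefty2 the second, with Sox3 (5.14-fold) and Sall2 (2.22-fold) lower. Of 16 measured neural progenitor genes 15 passed it downward and 0 upward (median −2.69), with Hes5 (log2 −4.78) and Nkx6-1 (−4.38) lowest. The marker lists of these states differed between the same 2 arrays as Tcf15, Cdx1, Eomes and Cdx2 did. Any part of cell state in the differences of those 4 genes was not tested.

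**Figure D4:**
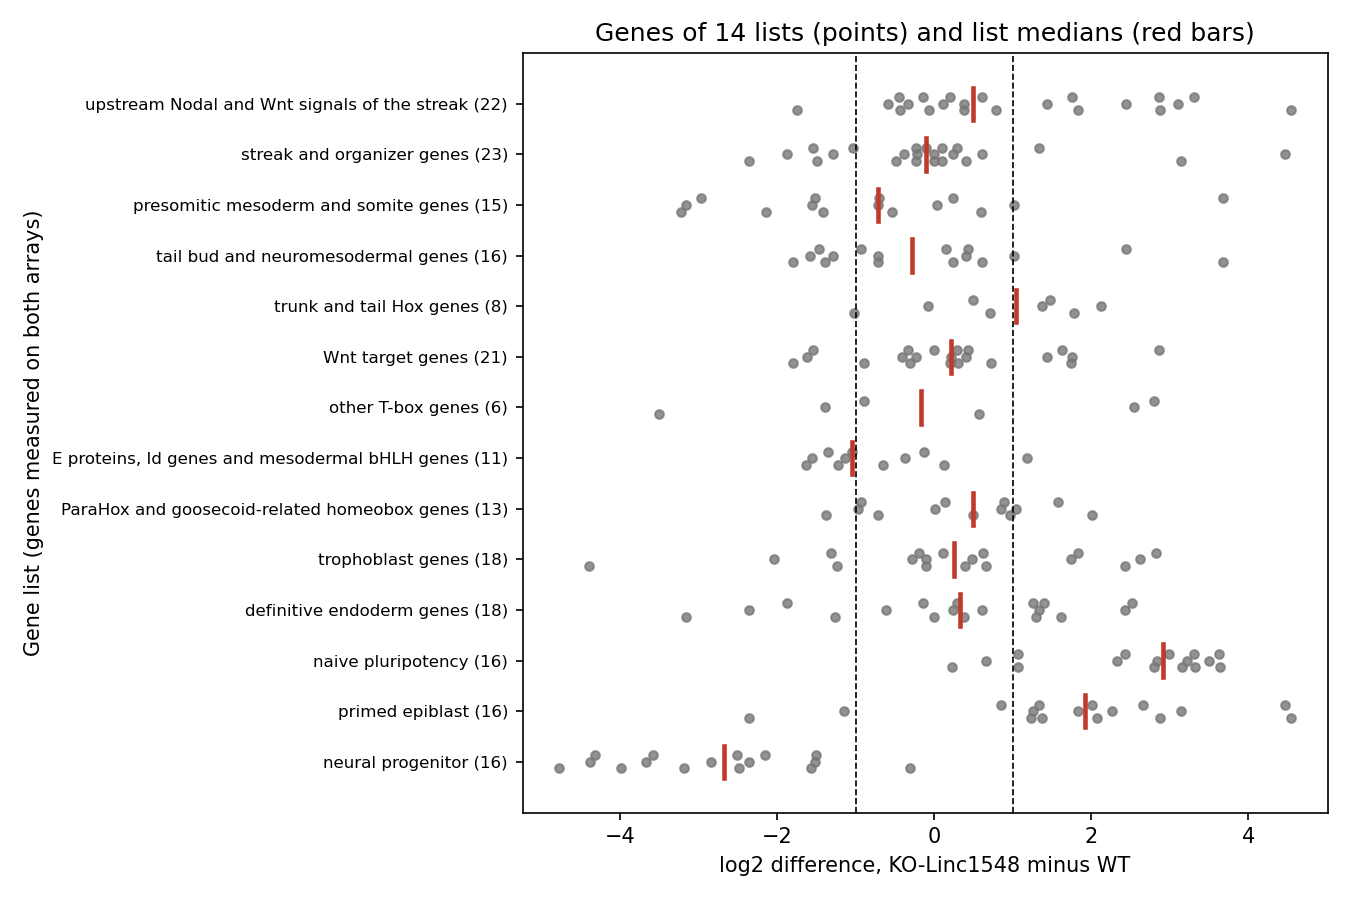
Log2 difference, KO-Linc1548 minus WT, of each gene measured on both arrays (grey points) in 14 lists, without the 10 genes themselves; red bars are list medians, dashed lines mark 2-fold, and the number of measured genes stands after each name. Naive pluripotency (median 2.91) and primed epiblast genes (1.92) lie to the right, neural progenitor genes (−2.69) to the left, and streak and organizer genes (−0.11) spread on both sides. A gene that stands in several lists is shown in each.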

How the data were processed

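Agilent Feature Extraction 10.7.1.1 made the deposited scanner files, per the submitters' processing notes, with 62976 spots on each array. Per the file headers, the deposited processed intensity was background-subtracted and detrended within each array, with no normalization between arrays; its error is the software's. The RNA was Cy3-labelled after linear amplification, per the labels.

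Groups were taken from the genotype label. Outlier spots were left out (155 on the KO-Linc1548 array, 173 on the WT array), log2 values were averaged over the spots of each probe, and each array was centred on its 75th percentile (652 for KO-Linc1548, 864 for WT). A probe was measured where a share of 0.5 or more of its spots passed the software's flag for signals well above background, with none saturated, which held on both arrays for 31536 of 56605 probes. A gene's value is the median log2 difference of its measured probes. For a gene detected on 1 array, the fold is a bound. Its signal there was divided by the larger, on the opposite array, of the probe's signal and the lowest detected one. Bounds were computed in the main setting only and leave out the signal errors, so other settings can move them. Errors of differences combine the software's errors of both arrays; the number of arrays limits the precision.

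Names were updated through RefSeq (GRCm38.p6) by accession (32978 probes), symbol (10227) or synonym (519); 8420 probes kept the array's name and 4449 lie at lincRNA loci, counted apart. The 10 genes and 14 lists were chosen with earlier results of these data known. The lists share genes, and a gene in several lists was counted in each, so their counts and medians are not independent. The text names every probe of the 10 genes and, from each list, the 2 highest and 2 lowest genes past 2-fold and up to 2 of the largest bounds; genes named beyond this were chosen after their values were seen. Alternatives were normexp background correction (offset 50), centring on probes measured on both arrays or on spike-in controls, quantile normalization, cyclic loess (limma 3.58.1, R 4.3.3), no filter or a stricter filter on dim probes (3 times the lowest signal well above background), and the brightest probe of a gene. The step from probes to genes was run on simulated arrays, made from the WT signals with spot noise and known changes added. Detection flags were kept as in the data, so the simulation does not cover dim probes or the spread between cultures.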

Additional observations from a re-analysis of the deposited data

How the results depend on the processing

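Spike-in centring lowered every log2 difference by the same amount: T to −1.07 (1 gene then at least 2-fold lower), Tbx6 to −0.26, Gsc to 0.57, Cdx2 to 1.75, Eomes to 2.76, Tcf15 to 3.06 and Cdx1 to 3.61. Normexp background correction gave 1.71 for Cdx2, 2.55 for Eomes and 2.89 for Cdx1. Without the filter on dim probes, which takes in the undetected second probes, T was at 0.42 and Eomes at 1.73, and Mixl1 had a value of 1.25. Cdx1 had no value under the stricter filter. The number of the 10 genes at least 2-fold higher was 4 to 6 over the alternatives. Tcf15, Cdx1, Eomes and Cdx2 were at least 2-fold higher in each alternative that gave them a value. Over all measured genes, 1311 passed 2-fold upward and 3341 downward with spike-in centring, against 2149 and 1644 in the main setting; normexp gave 1557 and 1048, and no filter 4037 and 2587. The median of all genes was −0.36 with spike-in centring and 0.39 without the filter, against 0.10. Of the counts and medians of the 14 lists under the alternatives, 274 stayed within 1.5 times the main count or 0.2 of the main median and the others moved further. The causes were not tested. Signal over background leaves Msgn1 and Cdx4 without a fold and Mixl1 with a bound, and limits the size for Cdx1. No paired analysis was possible because each group has 1 array, and no array could be left out.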

Other observations

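Long intergenic RNA loci on the array lie near several of the 10 genes. Within 100 kb of their probes (mm9) there were 10 lincRNA probes beside 5 genes, 6 of them measured on both arrays. The probe 43428 bases from that of Cdx4 (chrX:100481827-100481886) read 267 in KO-Linc1548 cells, against 29.4 in WT cells, a log2 difference of 3.18, while Cdx4 itself was not well above background on either array. The WT value lay close to background. Near Eomes, a lincRNA probe 80264 bases away read 766 in KO-Linc1548 cells and 501 in WT cells (0.61). Near Tcf15, a bright lincRNA probe 36672 bases away read 4563 in KO-Linc1548 cells and 4278 in WT cells (0.09). That probe did not share the difference of 3.52 seen for Tcf15. A dim lincRNA probe 46500 bases from that of Tcf15 read 40.8 in KO-Linc1548 cells and 20.0 in WT cells. It was well above background in KO-Linc1548 cells alone. The 3 lincRNA probes near Mixl1 differed by −0.54 to 0.12.

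Relatives of the 10 genes also read in both directions. Of 14 other T-box genes, 6 were measured, with 2 past 2-fold upward and 2 downward. Tbx3, a factor of naive pluripotency, was at 2.80 and Tbx22 at 2.55 (0.58 in the setting nearest 0), while Tbx20 was at −3.51 (−2.01 with normexp background correction) and Tbx1 at −1.39 (−0.90 in the setting nearest 0); the KO-Linc1548 signal of Tbx20 (36.7) lay close to background. Tbx2 was well above background in WT cells alone, at least 5.75-fold higher there. Of 20 ParaHox and goosecoid-related homeobox genes, 13 were measured, with 3 higher and 1 lower by 2-fold, but 2 higher and 4 lower with spike-in centring, where the median was 0.03 against 0.49. Otx2, a homeobox gene of the epiblast and anterior brain, was at 2.01 by the median of 3 probes and Rhox5 at 1.57, while Gsx1, a ParaHox gene of the neural tube, was at −1.39 (−0.58 in the setting nearest 0). Otp was well above background in WT cells alone, at least 30.8-fold higher there on 1 of its 2 probes; with both kept its median log2 difference was −2.81, a smaller size. Pitx1, a homeobox gene of the hindlimb and pituitary, was also so in WT cells alone, at least 5.00-fold higher there. Pdx1, the ParaHox gene of the pancreas, named after its value was seen, was so in KO-Linc1548 cells alone, by at least 2.73-fold on 1 of its 2 probes.

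Over 2 arrays, likeness to a gene is no more than a similar difference. The named genes nearest to Cdx1 (4.07) were Naa11 (4.07) and Dmrtc1c2 (4.08), those nearest to Tcf15 (3.52) were H19 (3.52) and Pla2g5 (3.51), those nearest to Eomes (3.22) were Tmprss13 (3.22) and Bcl3 (3.22), those nearest to Cdx2 (2.21) were Dhrs3 (2.22) and Isg15 (2.22), and those nearest to Gsc (1.03) were Tekt1 (1.03) and Dnajc21 (1.03).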
